A study of Mus musculus with 384 samples.

Results

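Spp1, Ibsp, Tyrp1, Anxa1, Lmcd1 and Ttc12 are 6 of the 26750 genes with at least 1 read in this series, and they were listed to be followed in a contrast of single dopamine neurons with many and with few or no Aldh1a7 reads. Their reads were followed in the 209 of 384 cells that held at least 500000 reads. A gene was called detected in a cell from 10 reads, and a cell was called Aldh1a7-positive from 10 Aldh1a7 reads. This split gave 74 Aldh1a7-positive and 135 Aldh1a7-negative cells, of which 90 held no Aldh1a7 read and 45 held 1 to 9. The 6 genes were selected on read counts in that contrast, so their levels in those 2 classes are described here without a test. Tests were kept for cells the choice did not use, for splits inside the Aldh1a7-positive cells and for sex.

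The study sequenced single neurons from 8 adolescent C57BL6/J mice, 3 labelled female and 5 labelled male, aged 24 to 36 days. Every mouse carried Cre at the dopamine transporter locus (DAT-Cre, DATIRESCre) and the Cre-dependent tdTomato reporter Ai9, and no treatment was given. The midbrain was dissected together with the hypothalamus, and tdTomato-positive and propidium iodide-negative cells were sorted. Each mouse was captured on 1 Fluidigm C1 chip, so that mouse and chip cannot be told apart. By the sample labels the chip was large for males 3 and 5 and for 1 of the females, and medium for the other mice. The sequencing lane also differed between mice. The part of chip size or lane in the results was not tested. Cre recombination is permanent, so the reporter also marks cells in which the transporter is no longer expressed. The sex numbers and the ages in the text of the series differ from the labels of the samples, which were used here. The full-length poly(A) libraries carry no molecular identifiers, so intervals and detection limits below cover counting error only.

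Dopamine neurons of the substantia nigra pars compacta and of the ventral tegmental area differ in their genes, and the ventral tier of the substantia nigra is known for the aldehyde dehydrogenase Aldh1a1 and the transcription factor Sox6, whereas Otx2, Calb1 and the vesicular glutamate transporter Slc17a6 are commoner in the tegmental area. Spp1 (osteopontin) and Ibsp (bone sialoprotein) are secreted phosphoproteins of the SIBLING family that bind integrins and are best known from bone. Tyrp1 is an enzyme of melanin synthesis in pigment cells, and Anxa1 is a calcium-dependent phospholipid-binding protein that is also released as a ligand of formyl peptide receptors. Lmcd1 is a LIM-domain cofactor that binds GATA factors, and Ttc12 is needed for the assembly of axonemal dynein arms.

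Several of the genes lie beside each other or beside genes of known dopaminergic function. In the GENCODE annotation of mouse build GRCm38, Ibsp spans chr5:104299171-104311469 and Spp1 spans chr5:104435118-104441050, both on the plus strand, 124 kb apart, with the family member Mepe between them. Anxa1 lies on the minus strand of chr19:20373428-20390944, 102 kb from the start of Aldh1a1 and 302 kb from Aldh1a7. Ttc12 lies on the minus strand of chr9:49436963-49486225, 9.94 kb from Ankk1, 15.9 kb from Ncam1 and 28.8 kb from Drd2, which encodes the dopamine D2 receptor. Tyrp1 spans chr4:80834123-80851719 and Lmcd1 spans chr6:112273758-112330425. Spp1 overlaps the annotated transcript Gm42793, Lmcd1 overlaps the antisense gene 5031434C07Rik and Gm44193, and Anxa1 lies within 1500015L24Rik on the opposite strand. The counting is not stated to use strand, so reads of such partners cannot be told apart, although 1500015L24Rik reached 10 reads in 0 cells and 5031434C07Rik in 7 of 209.

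**Figure D1:**
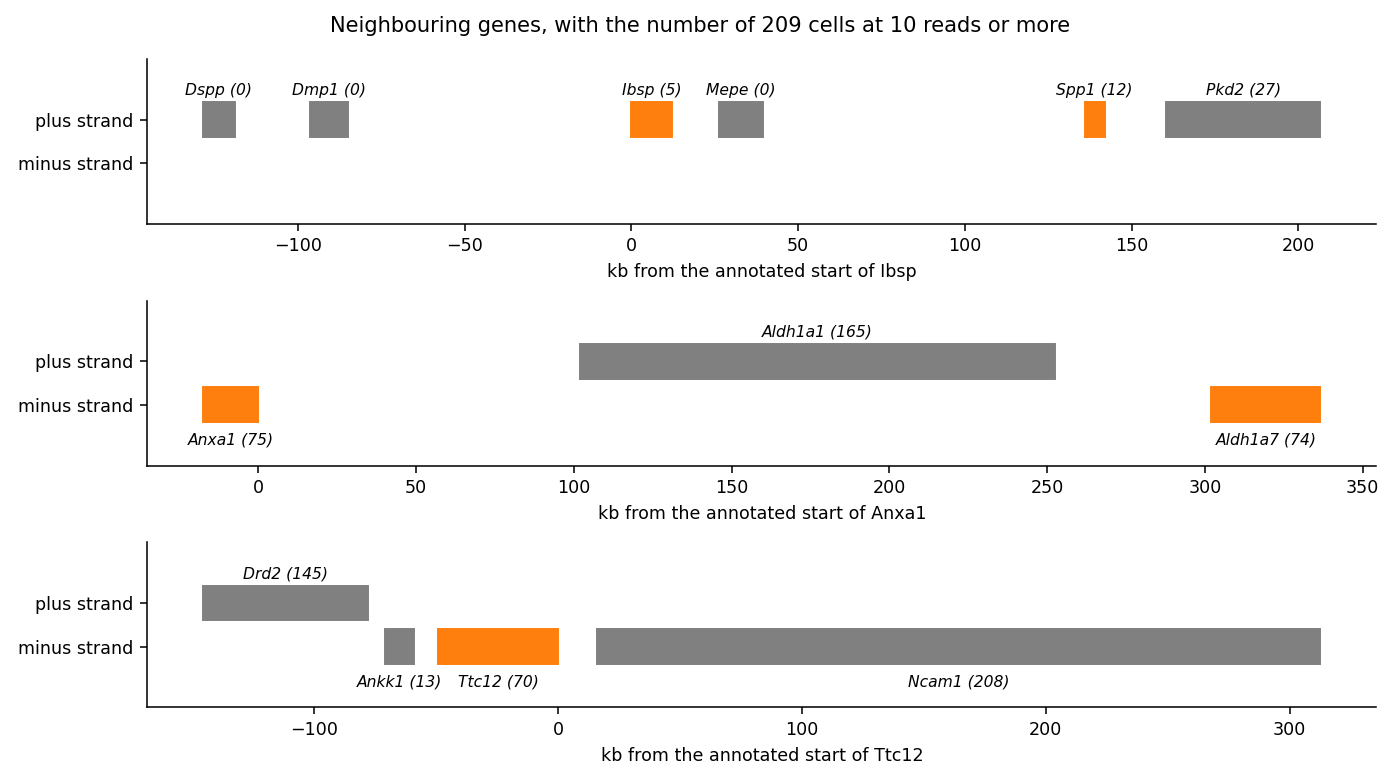
Gene maps of the neighbourhoods of Ibsp and Spp1 (top), Anxa1 (middle) and Ttc12 (bottom), drawn to scale in kb from the annotated start of Ibsp, Anxa1 or Ttc12. Listed genes and Aldh1a7 are orange, other genes are grey, genes on the plus strand are above those on the minus strand, and the number after each name is the number of 209 cells with 10 or more reads, for example 0 for Mepe between Ibsp (5) and Spp1 (12).

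The promoters shown next belong to the linked pair Spp1 and Ibsp, which shared cells, and to Lmcd1 and Ttc12, which hold the same short motif. They are RefSeq sequences of build GRCm38.p6, on the strand of the gene, taken from up to 250 bases before the RefSeq start and trimmed to the bases outside annotated exons. Capitals mark matches to the motifs searched on both strands, of which the printed stretch of Ibsp holds none.
Spp1, chr5:104434861-104435110, plus strand: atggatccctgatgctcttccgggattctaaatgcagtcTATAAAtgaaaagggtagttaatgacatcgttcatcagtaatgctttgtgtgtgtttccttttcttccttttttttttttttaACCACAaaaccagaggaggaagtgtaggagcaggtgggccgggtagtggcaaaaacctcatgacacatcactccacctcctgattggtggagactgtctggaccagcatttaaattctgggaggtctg
Ibsp, chr5:104299037-104299170, plus strand: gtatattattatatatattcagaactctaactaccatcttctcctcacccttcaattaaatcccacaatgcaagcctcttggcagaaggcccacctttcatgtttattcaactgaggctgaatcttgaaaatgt
Lmcd1, chr6:112273508-112273757, plus strand: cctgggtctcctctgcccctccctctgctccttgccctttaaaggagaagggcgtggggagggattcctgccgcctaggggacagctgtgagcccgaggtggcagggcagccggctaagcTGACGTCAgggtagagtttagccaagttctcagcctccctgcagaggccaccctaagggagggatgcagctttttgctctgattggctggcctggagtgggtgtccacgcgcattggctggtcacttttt
Ttc12, chr9:49486226-49486475, minus strand: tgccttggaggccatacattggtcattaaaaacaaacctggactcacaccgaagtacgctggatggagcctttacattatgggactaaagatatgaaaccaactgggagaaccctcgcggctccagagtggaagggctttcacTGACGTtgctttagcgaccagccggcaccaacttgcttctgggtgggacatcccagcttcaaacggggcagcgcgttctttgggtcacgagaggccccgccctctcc
The core of the cyclic AMP response element, TGACGT, occurred in the promoters of Ibsp, Lmcd1 and Ttc12 and in 6.47% of 32851 mouse promoters of the same length. In Lmcd1 the motif matched on both strands, with overlapping letters that begin 130 and 128 bases before the start, in Ttc12 it began 107 bases before the start, and in Ibsp 79 bases before it, in the exonic part that is not printed. Spp1 held the RUNX motif TGTGGT on the opposite strand, 128 bases before its start, and TATAAA 211 bases before it. TGTGGT was found in 14.0% of all promoters and in 2 of the 6 (Spp1 and Tyrp1), and TATAAA in 12.4% of all and in 3 of the 6 (Spp1, Ibsp and Anxa1). Tyrp1 held CATGTG, the core of the M-box bound by MITF, 46 bases before its start, which 12.3% of promoters hold, and the nuclear receptor half-site AGGTCA, which 14.0% hold. AACAAT (SOX factors, 9.42% of promoters) and TAATCC (OTX and PITX factors, 6.25%) were not found in these windows of the 6 genes.

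The 209 cells held 500672 to 1544824 reads each, with a median of 780484. Th, the rate-limiting enzyme of dopamine synthesis, was detected in 198 cells and the transporter Slc6a3 in 205, and all 74 Aldh1a7-positive cells held both. Aldh1a7-positive cells were somewhat richer in genes, with a median of 9779 against 8663 genes per cell. Oligodendrocyte reads were found on the Aldh1a7-negative side, with Mbp in 53 of 135 against 3 of 74 cells, and the summed level of the 10 oligodendrocyte markers ranged over the mice from 7.93 to 64.4 CPM (counts per 1e6 reads of a cell group) in Aldh1a7-positive and from 49.6 to 7403 CPM in Aldh1a7-negative cells. Mouse 1 had no Aldh1a7-positive cell among 18, and the other mice had from 4 to 28 of them. Mouse 3 stood apart with 28 of 45 cells, and it gave many of the cells with Spp1, Ibsp and Ttc12, so values without it are given beside those results.

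The 6 genes covered a wide range of abundance. Anxa1 was detected in 75 of 209 cells (35.9%, exact 95% interval 29.4 to 42.8%), Ttc12 in 70 (33.5%), Lmcd1 in 41 (19.6%), Tyrp1 in 19 (9.09%), Spp1 in 12 (5.74%, 3.00 to 9.81%) and Ibsp in 5 (2.39%). Per kilobase of exon, the mean level over the 8 mice was 209 ± 172 CPM per kb (SD, n = 8) for Anxa1, 6.16 ± 4.13 for Ttc12, 4.67 ± 4.11 for Lmcd1, 4.40 ± 7.59 for Spp1, 2.01 ± 1.88 for Tyrp1 and 0.652 ± 1.82 for Ibsp. Anxa1 lay above Ttc12 in 8 of 8 mice. Ttc12, Lmcd1, Spp1 and Tyrp1 were not separated from their neighbours in this order beyond the spread between mice, each being above the next in 5, 5 and 4 of 8 mice, and Tyrp1 was above Ibsp in 7 of 8. The nearest values below and above the detection limit were 2 and 10 reads for Spp1, 5 and 10 for Ibsp, 9 and 17 for Tyrp1, 7 and 10 for Anxa1, 9 and 10 for Lmcd1, and 9 and 11 for Ttc12. Lmcd1 was the gene with the largest part of its cells near the limit, with 15 of 41 cells at 10 to 19 reads and 5 more at 5 to 9, and Ttc12 had 11 cells at 5 to 9 reads and 7 at 10 to 19.

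Between the 2 classes, Anxa1 was the only one of the 6 that was higher in Aldh1a7-positive cells in 7 of 7 mice. Lmcd1 was higher in 6 of 7, Tyrp1 in 5, Ttc12 in 5, and Spp1 and Ibsp in 1 each. For background, 1.78% of 12106 genes with 10 or more reads in at least 10 cells were higher in every mouse and 6.8% in at least 6 of 7; this contrast chose the genes, so nothing is read from the counts. The median difference of all those genes was −0.21 on the log2(CPM + 1) scale. The 16 nigral-type markers used for comparison, Aldh1a7 included, had a median difference of 1.44, with 9 higher in every mouse (Sox6 among them), and the tegmental-type markers had a median of −1.77, with 6 of 14 lower in every mouse, as were 5.2% of all genes.

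**Figure D2:**
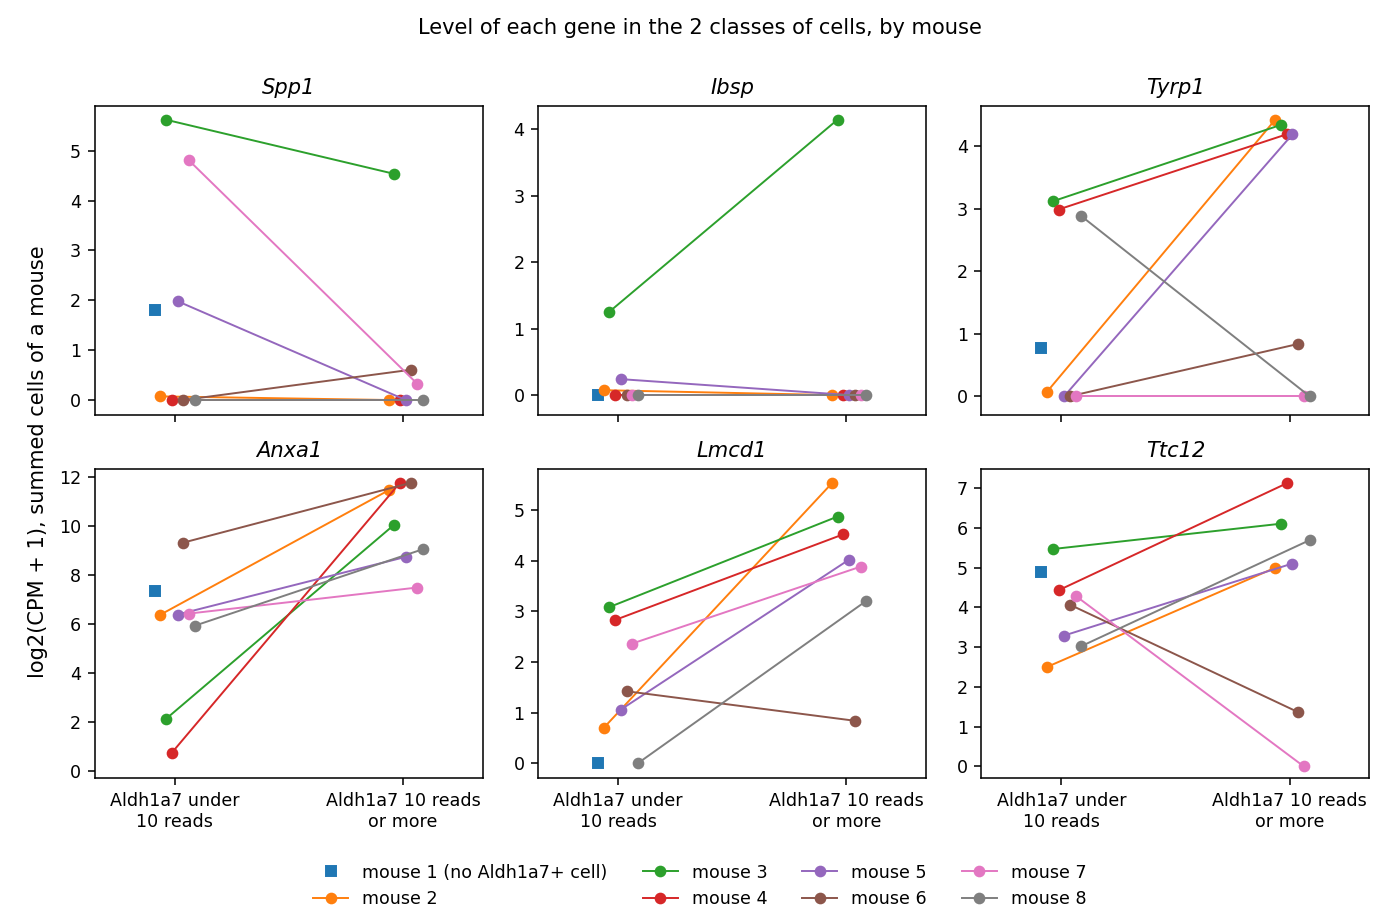
Level of each of the 6 genes, as log2(CPM + 1) of the summed cells of a mouse, in Aldh1a7-negative (left) and Aldh1a7-positive cells (right), with 1 line per mouse and a square for mouse 1, which had no Aldh1a7-positive cell. All 7 Anxa1 lines rise from left to right, Spp1 lies lower on the right in 4 of 7 mice, and the Ibsp values apart from mouse 3 lie at or near 0.

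Spp1 was not higher with Aldh1a7 in most mice. Of the 12 cells with Spp1, 4 were Aldh1a7-positive (of 74) and 8 were Aldh1a7-negative (of 135). The level over the 7 mice with both classes was lowest at 0, with a median of 0 and a highest value of 22.2 CPM in Aldh1a7-positive cells, against 0, 0.0518 and 48.2 CPM in Aldh1a7-negative cells. The paired difference was −1.0 ± 1.76 log2 units (SD, n = 7), lower in 4 mice and higher in 1, and the classes overlapped. The lower value of mouse 2 rests on 1 read and the higher value of mouse 6 on 2 reads, both under the limit of 3 counts that a count of 0 allows. Calling cells positive from 1 Aldh1a7 read turned the sign, to 0.22, and without mouse 7 the difference was −0.42.

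Spp1 was strong where it was present. The 12 cells held 10 to 397 reads with a median of 64.5, while 192 of 209 cells held none. The cells came from 4 mice, 9 of them from mouse 3 and 1 each from mice 1, 5 and 7, and in mouse 7 all 397 Aldh1a7-negative reads lay in 1 cell. Mouse 3 thus had Spp1 in 9 of 45 cells (20%) and the other mice together in 3 of 164 (1.83%). Mouse 3 ran on the C1 machine FRODO, and the 59 cells of the other 2 mice on that machine held Spp1 in 1 cell, against 2 of 105 cells on the machine SMEAGOL.

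The Spp1 cells were dopamine neurons by their mRNA. All 12 held Th and Slc6a3, 12 held Lix1, 11 held the potassium channel subunit Kcns3, 11 held Aldh1a1 and 11 held Ttc12. Otx2 was detected in 0 of 12, which allows up to 26.5% by the exact interval, Anxa1 in 1 and the peptide gene Grp in 1. They were mixed for other genes, with Calb1 in 6, Sox6 in 6 and Slc17a6 in 5.

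Within mouse 3 the Spp1 cells could be set beside their own neighbours, as a description of 1 animal. Ttc12 was found in 9 of 9 Spp1-positive and 26 of 36 Spp1-negative cells, Slc17a6 in 5 of 9 and 7 of 36, and Ndnf, a secreted neurotrophic factor gene, in 4 of 9 and 30 of 36. Kcns3 (8 of 9 and 32 of 36) and Calb1 (4 of 9 and 16 of 36) were near equal. A test over mice was not possible, since mouse 3 alone had enough cells of both kinds.

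Ibsp was the rarest of the 6 and came from 1 animal. Its 5 cells, all of mouse 3, held 10 to 211 reads with a median of 41, and 4 of them were Aldh1a7-positive. The level in the 7 mice with both classes was 0, 0 and 16.7 CPM (lowest, median, highest) in Aldh1a7-positive and 0, 0 and 1.39 CPM in Aldh1a7-negative cells, higher in 1 mouse and lower in 2. Outside mouse 3, 0 of 164 cells reached 10 reads. Without mouse 3 the mean difference went from 0.37 to −0.05 log2 units.

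Ibsp and Spp1, the linked SIBLING genes, were found in the same cells. Of the 5 Ibsp cells 4 held Spp1, and of the 204 cells without Ibsp 8 held it. The number of reads in the 4 shared cells was 211 Ibsp and 66 Spp1, 28 and 75, 51 and 287, and 10 and 10. The fifth Ibsp cell held 41 Ibsp reads, 73 Tyrp1 reads and no Spp1 read. Across 209 cells the log2(CPM + 1) values of the 2 genes had a Pearson correlation of 0.63, and across the 74 Aldh1a7-positive cells 0.82, which rests on a few cells of 1 mouse and 1 chip. All 5 Ibsp cells held Ttc12, Sox6, Kcns3 and Lix1, and none held Anxa1, Otx2 or Calb1. Slc17a6 was in 3 of the 5, against 9 of the 40 mouse 3 cells without Ibsp. In those 40 cells Lix1 was in 39, Kcns3 in 35, Ttc12 in 30 and Sox6 in 22. Calb1 was in 20, Anxa1 in 15 and Otx2 in 4 of them. Among the 12101 genes with 10 reads in at least 10 cells, the 6 genes left out, those most like Spp1 over 209 cells were Rspo2 (r = 0.49), which encodes a secreted activator of Wnt signalling, Tmem232 (0.46), Hsd17b2 (0.43), Gadl1 (0.39) and Epha3 (0.36). Rspo2 (0.43) and Tmem232 (0.40) also led for Ibsp, below its correlation with Spp1. Cells of a mouse share a chip, and mouse 3 gave 9 of the 12 Spp1 cells and all 5 Ibsp cells.

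**Figure D3:**
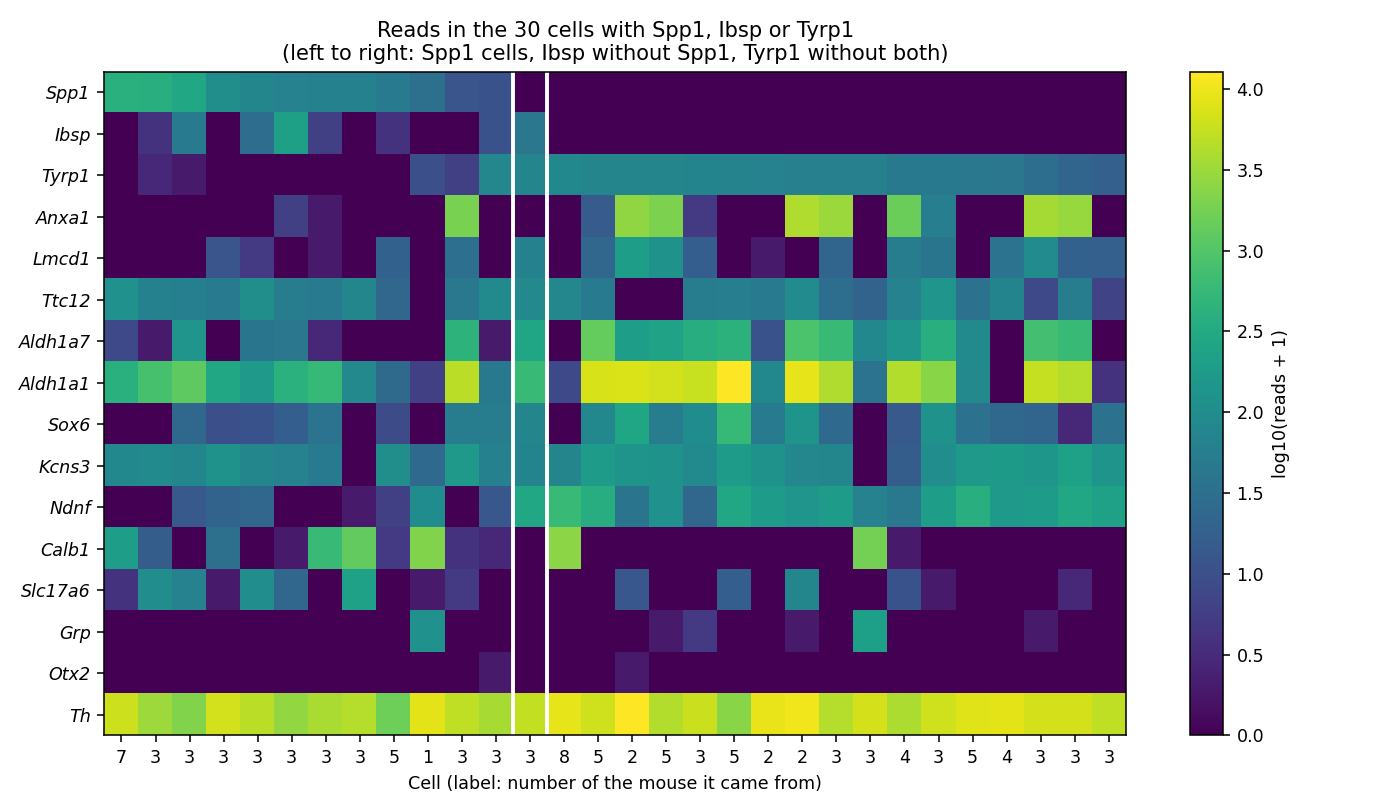
Reads, as log10(reads + 1), of the listed genes and of markers (rows) in each of the 30 cells with 10 or more reads of Spp1, Ibsp or Tyrp1 (columns, labelled by mouse number). White lines part the 12 Spp1 cells, the 1 cell with Ibsp and no Spp1, and the Tyrp1 cells without either; Ndnf is high across the Tyrp1 cells, and Otx2 is at or near 0 throughout.

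Tyrp1 marked a narrow set of cells on the Aldh1a7-positive side. It was detected in 15 of 74 Aldh1a7-positive cells (20.3%) and 4 of 135 Aldh1a7-negative cells (2.96%), in 5 mice. The level over 7 mice was 0, 17.3 and 20.6 CPM (lowest, median, highest) in Aldh1a7-positive and 0, 0.0518 and 7.70 CPM in Aldh1a7-negative cells. Mice 2, 3, 4 and 5 lay between 17.3 and 20.6 CPM in Aldh1a7-positive cells, and mice 6, 7 and 8 at 0.787, 0 and 0 CPM, so the classes overlapped. The paired difference was 1.28 ± 2.49 log2 units (SD, n = 7), and in mouse 8 the 1 cell with Tyrp1 was Aldh1a7-negative. It was 0.76 without mouse 2, 0.79 without mouse 5 and 1.97 without mouse 8. The 19 cells held 17 to 83 reads with a median of 61, and counted from 1 read there were 38 cells with a median of 13. Mouse 3 gave 9 of the 19 cells, which is 20% of its cells against 6.10% in the other mice.

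The company of Tyrp1 was uniform for some of the markers counted and mixed for others. All 19 cells held Ndnf, Lix1, Th, Slc6a3 and Drd2, 18 held Kcns3, 16 held Sox6 and 16 held Chrna3, a nicotinic acetylcholine receptor subunit. Otx2 was detected in 0, Grp in 1 and Calb1 in 2 of the 19, where 23%, 36.8% and 74.6% of all cells held them. In the 10 Tyrp1 cells outside mouse 3, Ndnf, Lix1 and Kcns3 were in 10, Sox6 in 9, Calb1 in 1 and Grp and Otx2 in 0. Aldh1a1 was in 8 and Slc17a6 in 4 of those 10, and in 8 and 0 of the 9 of mouse 3. Of all 19, Ttc12 was found in 15, Lmcd1 in 12 and Anxa1 in 9. The genes most like Tyrp1 over 209 cells, of 12101 compared, were Ndnf (r = 0.53), Gldn (0.47), Lix1 (0.45), Cyp4v3 (0.45) and Vill (0.45).

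Anxa1 was the most abundant of the 6 by a wide margin. It was detected in 50 of 74 Aldh1a7-positive cells (67.6%) and in 25 of 135 Aldh1a7-negative cells (18.5%), and in all 8 mice. Its level over 7 mice was 180, 1074 and 3523 CPM (lowest, median, highest) in Aldh1a7-positive and 0.678, 82.8 and 643 CPM in Aldh1a7-negative cells. The means were 1729 ± 1506 and 137 ± 226 CPM (SD, n = 7) and the paired difference was 4.72 ± 3.58 log2 units. Each mouse was higher in its Aldh1a7-positive cells, but the classes overlapped between mice, since mouse 6 reached 643 CPM in Aldh1a7-negative and mouse 7 only 180 CPM in Aldh1a7-positive cells. Cells were mostly either without Anxa1 or rich in it, with 106 of 209 at 0 reads and 62 at 50 reads or more, up to 7599 reads. Over all its cells mouse 3 held Anxa1 in 33.3% against 36.6% in the others, but within the classes its shares were lower, at 50% against 78.3% of Aldh1a7-positive and 5.88% against 20.3% of Aldh1a7-negative cells.

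The Anxa1 of the Aldh1a7-negative class lay in cells with a few Aldh1a7 reads. Anxa1 was detected in 2 of 90 cells with no Aldh1a7 read (2.22%), 23 of 45 cells with 1 to 9 reads (51.1%) and 50 of 74 cells with 10 or more (67.6%). Split at 1 Aldh1a7 read in place of 10, Anxa1 ran over 8 mice from 202 to 3522 CPM above the limit and from 0 to 6.51 CPM below it, so that the classes did not overlap, with a difference of 8.88 ± 1.72 log2 units (SD, n = 8). Split at 50 reads, the difference was 2.06 ± 1.52 (SD, n = 6), higher in 5 of 6 mice.

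The other genes of the Anxa1 cells are given by Aldh1a7 class. In the 50 Anxa1-positive cells with Aldh1a7, Aldh1a1 was detected in 50, Lix1 in 44, Kcns3 in 34, Sox6 in 32, Calb1 in 27, Ndnf and Grp in 26 each, Ttc12 in 24, Slc17a6 and Tacr3 in 19 each and Otx2 in 10. In the 25 Anxa1-positive cells under 10 Aldh1a7 reads (0 to 9, median 4), which came from 7 mice, Aldh1a1 and Calb1 were detected in 25, Grp in 21, Slc17a6 in 19, the tachykinin receptor Tacr3 in 18 and Otx2 in 12, while Sox6 and Ndnf were each in 2, Ttc12 in 3 and Tyrp1, Spp1 and Ibsp in 0. In the 24 Aldh1a7-positive cells under 10 Anxa1 reads, Lix1 was detected in 24, Ndnf in 22, Sox6 in 19 and Ttc12 in 19, while Tacr3 was in 17, Grp in 5 and Otx2 in 1. Of these 24 cells 14 came from mouse 3, against 1 of the 25. Outside mouse 3, Lix1 was in 10 of 10, Ndnf in 9, Sox6 in 8, Ttc12 in 6 and Grp in 2 of the first kind, and Lix1 in 13 of 24, Ndnf in 2, Sox6 in 2, Ttc12 in 2 and Grp in 20 of the second. Every one of the 75 Anxa1 cells held Aldh1a1, its neighbour on chromosome 19. Aldh1a1 (r = 0.69) and Aldh1a7 (0.62) were also the genes most like Anxa1 across 209 cells, followed by Igfbp2 (0.51), Ccnd2 (0.45) and Fam19a4 (0.44). Aldh1a1 and Aldh1a7 are close paralogs, and the study dropped reads that aligned to more than 1 gene, so their own values are uncertain.

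Lmcd1 was detected in 30 of 74 Aldh1a7-positive cells (40.5%) and 11 of 135 Aldh1a7-negative cells (8.15%), in 7 mice. Its level was 0.787, 15.2 and 45.2 CPM (lowest, median, highest of 7 mice) in Aldh1a7-positive and 0, 1.68 and 7.47 CPM in Aldh1a7-negative cells, a paired difference of 2.20 ± 1.69 log2 units (SD, n = 7). The classes overlapped through mouse 6 alone, whose 4 Aldh1a7-positive cells had 0.787 CPM. Amounts were low, with a median of 24 reads in the 41 cells. Of these cells 38 held Aldh1a1, 35 Chrna3, 34 Kcns3, 33 Ndnf, 29 Sox6 and 2 Otx2, and of the 20 outside mouse 3, 13 each held Kcns3, Ndnf and Sox6. Among cells with Lmcd1, Calb1 was in 5 of 21 in mouse 3 and 10 of 20 outside it. Grp was in 4 and 8 and Slc17a6 in 3 and 8 of them. In the 144 cells without Lmcd1 outside mouse 3, Calb1 was in 126, Grp in 61 and Slc17a6 in 93. Ndnf (r = 0.52), Chrna3 (0.51), Kcns3 (0.51), the ephrin receptor Epha4 (0.51) and Aldh1a7 (0.50) were most like Lmcd1. The share of cells with Lmcd1 was 46.7% in mouse 3 and 12.2% in the other mice.

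Ttc12 was detected in 43 of 74 Aldh1a7-positive cells (58.1%) and 27 of 135 Aldh1a7-negative cells (20%), in all 8 mice. Its level was 0, 33.3 and 138 CPM (lowest, median, highest of 7 mice) in Aldh1a7-positive and 4.66, 15.7 and 43.1 CPM in Aldh1a7-negative cells. The difference was 0.47 ± 2.84 log2 units (SD, n = 7), less than its spread, because Ttc12 was lower in the Aldh1a7-positive cells of mice 6 and 7, at 1.57 and 0 CPM, and higher in the other 5. It was 0.10 without mouse 4, 0.11 without mouse 8, 0.14 without mouse 2, 0.25 without mouse 5, 1.0 without mouse 6 and 1.27 without mouse 7. Mouse 3 held it in 77.8% of its cells and the other mice in 21.3%. Of the 70 cells with Ttc12, 66 held Lix1, 52 Kcns3, 42 Ndnf and 41 Sox6, while Otx2 was in 5 and Grp in 15. Of the 70 cells 35 came from mouse 3, where Kcns3 was in 32 of 35 cells with and 8 of 10 without Ttc12 and Ndnf in 27 of 35 and 7 of 10. In the other mice Kcns3 was in 20 of 35 cells with and 27 of 129 without Ttc12, Ndnf in 15 and 19, Sox6 in 19 and 30, and Lix1 in 31 and 80. Calb1 was in 22 and 114 of these cells and Slc17a6 in 18 and 83. In mouse 3 Calb1 was in 14 of 35 cells with and 6 of 10 without Ttc12, and Slc17a6 in 9 and 3. Lix1 (r = 0.55), Kcns3 (0.51), Gldn (0.50), Cyp4v3 (0.48) and the synuclein Sncg (0.48) were the genes most like Ttc12. The 31 Aldh1a7-positive cells without Ttc12 held Anxa1 in 26, Grp in 21 and Otx2 in 10, and the 43 with Ttc12 held Anxa1 in 24, Grp in 10 and Otx2 in 1. Mouse 3 gave 3 of the 31 and 25 of the 43 cells. In the other mice Anxa1 was in 24 of 28 cells without and 12 of 18 with Ttc12, Grp in 21 and 4, and Otx2 in 10 and 1.

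**Figure D4:**
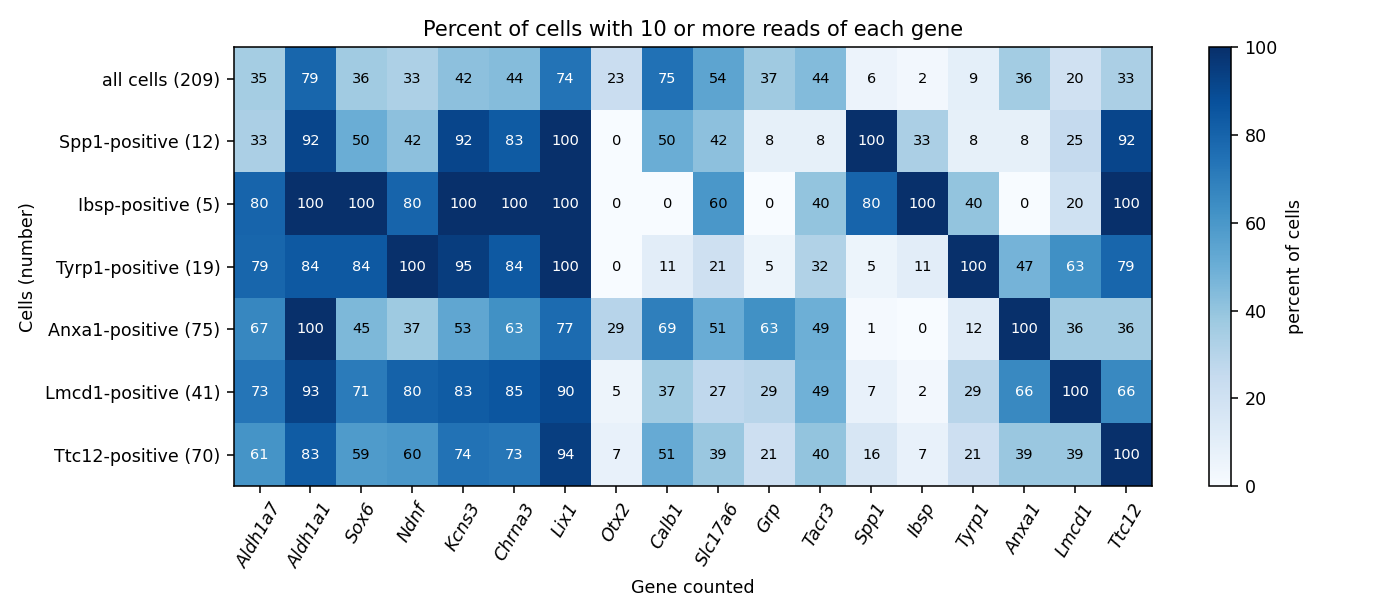
Percent of cells with 10 or more reads of each gene (columns) among all 209 cells and among the cells with each of the 6 genes (rows, with the number of cells). Otx2 is at 0 in the Spp1, Ibsp and Tyrp1 rows and at 29.3% in the Anxa1 row, which also holds the highest share of Grp.

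The 6 genes overlapped only in part. None of the 6 was detected in 86 of 209 cells, 1 in 62, 2 in 31, 3 in 22 and 4 in 8, and 0 cells held 5 or 6 of them. In Aldh1a7-positive cells 4 of 74 held none, against 82 of 135 Aldh1a7-negative cells. Inside the Aldh1a7-positive cells, Ttc12 was detected in 48.0% of Anxa1-positive and 79.2% of Anxa1-negative cells, and Lmcd1 in 66.7% of Tyrp1-positive and 33.9% of Tyrp1-negative cells. Tyrp1 cells also held Ttc12 more often, in 80% against 52.5%. Only 6 of the 15 pairs had at least 2 mice with 3 or more cells in each class. In those, the mean difference over mice was −15.5 ± 11.8 percentage points (SD, n = 2) for Ttc12 by Anxa1, 16.5 ± 18.0 (n = 3) for Lmcd1 by Tyrp1 and 22.0 ± 24.0 (n = 3) for Ttc12 by Tyrp1. No pair passed the two-sided exact sign-flip permutation test over mice (adjusted p from 0.6 to 0.75 over 6 pairs), and the test could not have gone below p = 0.25 with 3 mice or 0.5 with 2.

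Some relatives and partners of the 6 genes were detected in most cells and others in none. Of the other SIBLING genes, Dspp, Dmp1 and Mepe reached 10 reads in no cell, whereas the neighbour Sparcl1, an astrocyte-enriched matrix protein gene, was in 120 cells and Pkd2 in 27. Among 10 osteopontin receptors, the integrin chain Itgb1 was in 150 cells, Itga4 in 19, Cd44 in 14 and Itgav in 10, and 0 of 4 testable by level were higher or lower in every mouse. The formyl peptide receptors, to which Anxa1 binds, were nearly undetected, with Fpr2 in 10 cells, Fpr1 in 2 and Fpr3, Fpr-rs3 and Fpr-rs4 in 0.

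Of 12 annexins, Anxa1 stood beside Anxa5 in 178 cells, Anxa7 in 161 and Anxa6 in 146, while the remaining 8 were each in 5 cells or fewer. Anxa5 was higher in the Aldh1a7-positive cells of 7 of 7 mice, by 0.53 log2 units. Tyrosinase (Tyr), the first enzyme of melanin synthesis, was found in 194 cells at 46.5 ± 18.3 and 45.4 ± 11.9 CPM (SD, n = 7) in the 2 classes, near equal in them. Mitf was in 12 cells, Pmel in 1 and Dct, Mlana, Oca2, Slc45a2 and Gpr143 in 0. Slc24a5 was in 58 cells, but it overlaps Myef2, which was in 197.

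For Lmcd1, the GATA factors were at 0 cells apart from Gata2 in 1, while the calcineurin subunits Ppp3ca (206), Ppp3r1 (203) and Ppp3cb (192) and the calcineurin regulator Rcan2 (196) were detected broadly. For Ttc12, the dynein assembly factors were detected less widely, with Lrrc6 in 62 cells, Dnaaf2 in 29, Ccdc103 in 8, Zmynd10 in 4 and Dnaaf1, Dnaaf3 and Pih1d3 in 0. Dnaaf2 was lower in the Aldh1a7-positive cells of 7 of 7 mice, by −2.41 log2 units. Of the neighbours of Ttc12, Drd2 was in 145 cells and higher in the Aldh1a7-positive cells of every mouse, by 1.17 log2 units, Ankk1 was in 13 cells and Ncam1 in 208.

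The same contrast was then tested in cells that had played no part in the choice of the genes. These 79 cells held 100000 to under 500000 reads (median 216841), with 22 Aldh1a7-positive and 57 Aldh1a7-negative, from the same mice. The detected shares were 10 of 22 against 9 of 57 for Anxa1, 7 against 5 for Ttc12, 7 against 0 for Lmcd1, 4 against 3 for Tyrp1, 3 against 3 for Spp1 and 0 against 0 for Ibsp. A count of 0 of 57 allows up to 6.27% by the exact interval. Mouse 3 gave 6 of the 7 Aldh1a7-positive cells with Lmcd1 and 5 of the 7 with Ttc12, and in the other mice the counts were 1 of 13 against 0 of 49 for Lmcd1 and 2 of 13 against 2 of 49 for Ttc12. In the same 13 and 49 cells, Anxa1 was in 7 and 8, Tyrp1 in 1 and 2, and Spp1 in 1 and 1. The Aldh1a7-positive cells were also deeper, with a median of 345864 against 177501 reads, and the part of depth in these shares was not tested. The test on summed counts used mice 3, 4, 7 and 8, where both classes reached 3 cells.

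None of the 6 genes passed in the held-out cells. In edgeR's quasi-likelihood fit, adjusted over all genes by Benjamini and Hochberg, 0.0124% of 8092 genes were called, which is 1 gene, Aldh1a7 itself, and 8.16% had an unadjusted p under 0.05. Tyrp1 had 18.7, 1.35, 74.0 and 0 CPM in the Aldh1a7-positive and 10.3, 0, 0 and 14.8 CPM in the Aldh1a7-negative cells of mice 3, 4, 7 and 8, higher in 3 of 4. Its log2 fold change was 1.82 ± 1.73 (SE), with an edgeR adjusted p of 0.765. Ttc12 had 57.9, 86.2, 0 and 0 against 34.2, 8.69, 0 and 9.54 CPM, which overlapped, with a log2 fold change of 1.39 ± 1.64 (edgeR adjusted p = 0.815), which was 0.36 without mouse 4 and 0.40 with the mouse as a block.

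Anxa1 had 460, 0, 56.5 and 56.6 against 39.8, 6.95, 247 and 13.8 CPM, higher in mice 3 and 8 and lower in mice 4 and 7. Its log2 fold change was 0.76 ± 1.36 (edgeR adjusted p = 0.887) and 0.039 with the mouse as a block, and it became −1.24 without mouse 3, but 4.5 at a limit of 50 Aldh1a7 reads (edgeR p = 0.0115 before and 0.9997 after adjustment) and 2.73 at 1 read (0.0345 and 0.724). Spp1 had 29.9, 21.5, 0 and 0 against 67.8, 72.1, 0 and 0 CPM, again lower in the Aldh1a7-positive cells of both mice that held it (−1.42 ± 1.75, edgeR adjusted p = 0.825). Lmcd1 and Ibsp were below the filter on low counts. Lmcd1 had 35.8, 9.42, 0 and 65.4 against 4.14, 0, 2.87 and 0 CPM, higher in 3 of 4 mice. Among the nigral-type markers besides Aldh1a7 that could be tested, 0 of 14 passed and 7 were higher at an unadjusted p under 0.05, among them Aldh1a1 and Sox6, with a median of 1.67 against −0.10 for all genes. With this number of mice and cells, simulated 4-fold changes were recovered in 0% and 16-fold changes in 30% of cases.

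Inside the Aldh1a7-positive cells, Anxa1 was used to split the cells, and the other genes were compared in mice 3 and 5, the 2 mice with enough cells of each kind. Only Anxa1, which made the split, was called (0.0078% of 12826 genes), and 2.6% had an unadjusted p under 0.05. Spp1 had 1.20 and 0 CPM in the Anxa1-positive cells of mice 3 and 5 and 43.6 and 0 CPM in their Anxa1-negative cells, so its log2 fold change of −5.16 ± 2.58 (SE, edgeR adjusted p = 0.9998) rests on mouse 3. Without the filter on low counts, edgeR called Spp1 (−5.15, adjusted p = 0.0315) and Ibsp (−10.28, adjusted p = 0.000736, at 0 and 0 against 33.8 and 0 CPM), both from reads of mouse 3 alone, and the second has no bounded size since 1 class is at 0. Lmcd1 was higher with Anxa1 in both mice, at 39.4 and 21.5 against 16.9 and 8.35 CPM (1.23 ± 0.72, edgeR adjusted p = 0.9998). Ttc12 was lower in both, at 55.4 and 29.1 against 80.1 and 37.9 CPM (−0.52 ± 0.59), and Tyrp1 was at 17.1 and 18.1 against 21.6 and 16.4 CPM (−0.16 ± 0.65). The Tyrp1 difference was −0.34 at a limit of 50 Anxa1 reads, −0.78 in thinned cells, −1.08 from 1 Anxa1 read and −2.16 without cells with glial reads, and it did not pass in any of these fits. Without cells with glial reads the Lmcd1 difference was 0.65 and the Ttc12 difference −0.32.

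The split by Ttc12 could be made in mice 2, 3, 5 and 8. By edgeR's test 0% of 11045 genes were called, with 2.81% (310 genes) at an unadjusted p under 0.05, while DESeq2 called 16 genes, Ttc12 itself among them and none of the other 5. Anxa1 was lower in the Ttc12-positive cells of 4 of 4 mice, with 2554, 879, 23.3 and 112 CPM against 3026, 2677, 792 and 955 CPM, and the log2 fold change was −1.06 ± 1.05 (SE, edgeR adjusted p = 0.999). With the mouse as a block it was −2.47 ± 0.75, with an edgeR p of 0.0127 before and 0.9993 after adjustment. Lmcd1 was lower in 4 of 4 mice as well, with 41.8, 25.9, 6.65 and 1.05 against 47.4, 47.4, 22.9 and 15.4 CPM (−0.81 ± 0.92, edgeR adjusted p = 0.999, and −1.52 ± 0.78 with the block). Tyrp1 was higher in 3 of 4 and at 0 in both classes of mouse 8 (1.08 ± 1.38). None of the 3 passed, and simulated 4-fold and 16-fold changes were recovered in 31% and 59% of cases in this comparison. From 1 Ttc12 read the Anxa1 difference turned to 0.87 and the Tyrp1 difference was 0.043. In thinned cells Anxa1 was at −0.62, Lmcd1 at −0.33 and Tyrp1 at 0.40, and without mouse 2 Anxa1 was at −2.17 and Lmcd1 at −1.37. From 50 Ttc12 reads Lmcd1 was at −1.93, and without cells with glial reads Anxa1 was at −0.64 and Lmcd1 at −0.53.

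None of the 6 genes passed between males and females. The sex labels held in the sums of the 8 mice: the 5 genes called by edgeR (0.0322% of 15529 genes, with 8.12% at an unadjusted p under 0.05) were the Y-linked genes Ddx3y, Uty, Eif2s3y and Kdm5d and the X-inactivation RNA Xist. Spp1 was 0.0343, 32.4, 1.53, 21.3 and 0 CPM in males 2, 3, 5, 7 and 8 and 2.51, 0 and 0.137 CPM in females 1, 4 and 6, which overlapped (log2 fold change 3.75 ± 2.32, SE, edgeR adjusted p = 0.724). Anxa1 was 1016, 651, 249, 105 and 201 CPM in the males and 163, 1077 and 1398 CPM in the females (−0.95 ± 0.78, edgeR adjusted p = 0.807). Lmcd1 (1.38 ± 1.33), Tyrp1 (0.95 ± 1.55) and Ttc12 (−0.29 ± 0.63) did not pass either, and Ibsp was below the filter. Leaving out 1 mouse moved Spp1 between 2.71 and 7.07 (without female 1), Anxa1 between −1.49 (without male 2) and −0.44 (without female 6), Lmcd1 between 0.78 (without female 1) and 3.89 (without female 4) and Tyrp1 between 0.37 (without male 3) and 4.01 (without female 4). Oligodendrocyte markers were also compared between the sexes. Of the 10 markers 5 could be tested, 0 passed and 4 were higher in males at an unadjusted edgeR p under 0.05, with a median log2 fold change of 7.37 against 0.021 for all genes. Their summed level was 61.6, 2783, 33.9, 1536 and 83.4 CPM in males 2, 3, 5, 7 and 8 and 110, 51.2 and 66.0 CPM in females 1, 4 and 6, so males 3 and 7, the 2 mice with the most Spp1, stood apart and the other males overlapped the females. Without cells with glial reads the Spp1 difference was 3.95 ± 2.31 (edgeR adjusted p = 0.730). The 3 females all ran on the machine SMEAGOL, while males ran on both, so sex and machine could be parted only in the 2 males on SMEAGOL.

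With the Aldh1a7-positive cells alone, Anxa1 showed the largest ratio to its error between the sexes among those of the 6 genes that could be tested. The 5 males had 2840.3, 1074, 430, 180 and 534 CPM and the 2 females with such cells had 3522 and 3523 CPM, so that the sexes did not overlap, with a log2 fold change of −1.89 ± 0.79 (SE) and an edgeR p of 0.0388 before and 0.367 after adjustment. In that comparison 0.0231% of 12968 genes were called (Ddx3y, Eif2s3y and Tacr3) and 12.7% had an unadjusted p under 0.05, and each female value rests on 4 cells. These 2 females were 33 and 36 days old and the 5 males 24 to 28 days, so sex and age cannot be told apart here. Aldh1a7, which chose these cells, was lower in the males as well, at a mean of 280 against 632 CPM (−1.29 ± 0.54, edgeR p = 0.0406 before and 0.374 after adjustment). On the machine SMEAGOL alone the Anxa1 difference was −1.30 ± 1.03 (edgeR p = 0.249 before and 0.999 after adjustment). Ttc12 was 1.57 and 138 CPM in the 2 females and 0 to 67.6 CPM in the males, which overlapped (−0.97 ± 1.46, edgeR adjusted p = 0.826). Lmcd1 (0.93 ± 1.13) and Tyrp1 (0.29 ± 1.93) did not pass, and Spp1 and Ibsp were below the filter. Across the 5 comparisons, apart from genes that made a split, DESeq2 called 0 of the 6 genes.

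**Figure D5:**
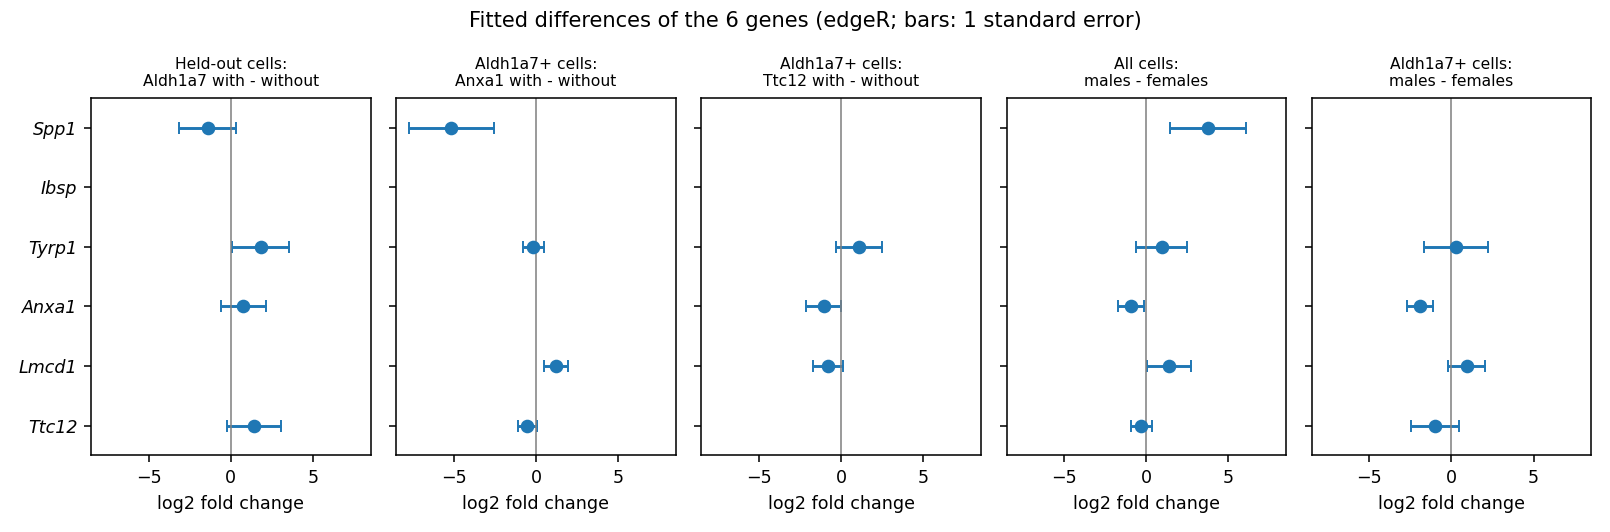
Fitted log2 fold change (point) and its standard error (bar) of each of the 6 genes in the 5 edgeR comparisons, with no point where a gene was below the filter on low counts or made the split. The points farthest from 0 for their error are Spp1 in the Anxa1 split (−5.16 ± 2.58) and Anxa1 between the sexes in Aldh1a7-positive cells (−1.89 ± 0.79), and none passed adjustment.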

How the data were processed

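Read counts per gene and cell were deposited by the authors as whole numbers, not normalized. According to the study's methods and the submitters' processing notes, reads were trimmed with Trimmomatic 0.3.2, aligned to mouse build GRCm38 with TopHat2 2.1.1 and counted on RefSeq genes with featureCounts 1.5.0-p3, leaving out reads on more than 1 gene. CASAVA, bcl2fastq 2.17 and Cufflinks are also named, and other deposited files were not used here. Of 47082 entries 41361 carried counts, and 94 entries that name no gene (0.00325% of reads) were left out.

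The 6 genes and all lists were chosen with earlier results of these data known. Groups came from the labels of the samples: 384 cells of 8 mice, with 0 barcodes shared. Cells were kept from 500000 reads, and cells of 100000 to under 500000 reads were held out. A gene was detected from 10 reads. Levels are CPM of reads summed over the cells of a mouse and class, and differences are on the log2(CPM + 1) scale, which understates changes of low genes. Classes needed 3 cells per mouse. Intervals are exact (Clopper-Pearson, 95%) and, like the limits for counts of 0, cover counting error only.

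Summed counts were tested with edgeR 4.0.16 (TMM, filterByExpr, quasi-likelihood) in R 4.3.3, with Benjamini-Hochberg adjustment over all genes tested and a threshold of 0.05. Between the sexes the p-values measure the spread between mice, each of which was 1 chip. In the split comparisons the main fit had no term for the mouse. Both sums of a mouse entered there as separate samples, and the pairing was used only in the block fit. DESeq2 1.42.0, other size factors, no filter, other detection limits, thinned cells, cells with Th and Slc6a3, cells without glial reads, 1 machine, the mouse as a block and each mouse left out were alternatives. Both classes of a mouse come from the same animal, so they are paired: their deviations correlated by 0.0515 to 0.139 in the held-out cells, 0.179 in the Anxa1 split and 0.0854 to 0.154 in the Ttc12 split. The fits were tested on simulated data. Detected shares of pairs of genes were compared by an exact sign-flip test over mice in Python 3.11.15.

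The genes named are the 6 genes, Aldh1a7, the genes of the fixed lists (families, partners, neighbours and cell type markers) and the 5 genes most correlated with each of the 6 among the other genes with 10 reads in at least 10 cells, the 6 left out. 1500015L24Rik, 5031434C07Rik, Gm42793, Gm44193 and Myef2 are named only because they overlap such genes. Promoters are from RefSeq and gene positions from GENCODE. Dnaaf4 and Dnaaf5 were not analysed here, and 1 marker of the fixed lists is not reported here.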

Additional observations from a re-analysis of the deposited data

Results flagged for a closer look

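In 5 of 18 groups of mice examined, the highest mouse lay farther from the next than Dixon's 95% limit. Chance passes that limit in about 1 in 20 separate groups of normal values, but these groups hold many values at 0 and share cells, so that rate does not apply and the values are a description. Spp1 in the Aldh1a7-positive cells was 22.2 CPM in mouse 3 and 0.525 CPM in the next of 7 mice. Ibsp over all cells was 10.7 CPM in mouse 3 and 0.0940 CPM in the next of 8 mice. Ibsp was also apart in mouse 3 within each class, at 16.7 CPM with 0 in the other 6 mice in Aldh1a7-positive cells, and at 1.39 CPM against 0.181 CPM in the next mouse in Aldh1a7-negative cells. Anxa1 in the Aldh1a7-negative cells was 643 CPM in mouse 6 and 163 CPM in the next mouse, and 2 of the 13 such cells of mouse 6 held it. Mouse 3 was also the mouse with the most cells and the largest share of Aldh1a7-positive cells, and the part of either in these values was not tested. It was among the mice captured on a large chip, and the part of chip size was not tested either.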

How the results depend on the processing

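In the held-out cells, where 1 gene was called, DESeq2 called 52, the mouse as a replicate block 2, cells with Th and Slc6a3 0 and a limit of 50 Aldh1a7 reads 0, and 0 to 1 were called with a mouse left out. In the Anxa1 split (1 gene), DESeq2 called 15, no filter 31 with 2 of the 6 genes among them, and limits of 50 or 1 Anxa1 reads 0. In the Ttc12 split (0 genes), DESeq2 called 16. Between the sexes (5 genes), DESeq2 called 190, the machine SMEAGOL alone 0, and 4 to 5 were called with a mouse left out. In Aldh1a7-positive cells (3 genes), DESeq2 called 649, no filter 7, SMEAGOL alone 0, and 0 to 5 were called with a mouse left out. In simulated held-out cells, DESeq2 made 34 false calls and edgeR 0. In the simulated Ttc12 split they made 47 and 5, and in the simulated sex comparison 62 and 1. Pairing by the mouse block changed no other call, and the unadjusted edgeR p of Spp1 in the Anxa1 split became 0.0194 with it.

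Some signs turned. In the held-out cells Tyrp1 became −0.77 at 50 and −0.61 at 1 Aldh1a7 read and ran from −0.58 (without mouse 7) to 3.50 with a mouse left out, Anxa1 became −0.99 without cells with glial reads and ran from −1.24 (without mouse 3) to 2.93, while it was 4.5 at 50 reads, 2.73 at 1 read and 2.26 in thinned cells, and Ttc12 became −0.14 at 50 reads. In the Ttc12 split Anxa1 became 0.87 at 1 read. Between the sexes Tyrp1 became −0.081 on SMEAGOL, and Ttc12 became 0.31 without cells with glial reads and ran from −0.95 to 0.42 (without mouse 4). In Aldh1a7-positive cells Tyrp1 ran from −0.62 (without mouse 6) to 3.69, also turning without mouse 2 (−0.04) or 3 (−0.02), Lmcd1 from −0.0093 (without mouse 6) to 4.64, and Ttc12 from −1.94 to 4.37 (without mouse 4), with 0.048 without cells with glial reads. None of these passed adjustment in either direction. Of the levels, Spp1 became 0.22 from 1 Aldh1a7 read, and Ibsp became −0.26 from 50 reads and ran from −0.052 (without mouse 3) to 0.47. The cause of these changes was not tested.

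The share of cells fell without mouse 3 to 1.83% for Spp1, 0% for Ibsp, 12.2% for Lmcd1 and 21.3% for Ttc12. From 1 read it was 4.78% for Ibsp, 18.2% for Tyrp1, 49.3% for Anxa1, 27.8% for Lmcd1 and 46.4% for Ttc12, and from 50 reads 0.957% for Ibsp, 5.74% for Tyrp1, 4.31% for Lmcd1 and 20.1% for Ttc12. A second limit on glial reads, with fewer markers, was chosen after seeing the data. A split by Spp1 had enough cells in mouse 3 alone, and leaving out a mouse of the Anxa1 split would leave 1 against 1, so neither was run.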

Other observations

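Of 14 tegmental-type markers tested between the sexes in Aldh1a7-positive cells, 12 were higher in males at an unadjusted edgeR p under 0.05, where 12.7% of all genes had such a p in either direction, and 1 passed adjustment: Tacr3, the neurokinin receptor, which held 191 ± 92.7 CPM (SD) in the 5 males but 0.848 ± 0.655 CPM in the 2 females, a log2 fold change of 7.58 ± 0.86 (SE, edgeR adjusted p = 0.0318). The females gave 4 cells each, from mice 4 and 6, and were 33 and 36 days old against 24 to 28 days for the males, and with the machine SMEAGOL alone 0 genes were called.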
